A study of Mus musculus with 24 samples.

Results

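The expression of 10 genes of extracellular nucleotide signalling was followed through sorted stromal cells of mouse fat. The genes encode the ectonucleotidases Nt5e and Entpd1, the P2Y receptors P2ry1, P2ry6 and P2ry12, the P2X channels P2rx4 and P2rx7, and the adenosine receptors Adora2a, Adora2b and Adora3. A gene was read from an array row that carries exactly 1 gene symbol; of several such rows the brightest on average across the 24 arrays would stand for it. Such a row was found for 8 of the 10 genes, each with 1 row, among 22180 genes with a row of their own. Adora2a and Adora2b were not analysed here. The genes were chosen by function and with measured values in view: the lower levels of Nt5e and P2ry1 in preadipocytes of obese mice had already been seen in these arrays, so that contrast is given below as a description with no test. Tests of Nt5e and P2ry1 in preadipocytes against macrophages use the same preadipocyte arrays and are not independent of that choice.

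Gonadal fat of male C57Bl/6 mice was digested with collagenase to free the cells. The labels state neither the ages nor how long the obese mice were fed. The mice were lean on normal diet (ND), obese on high-fat diet (HFD, 60% fat), or had been given 12 weeks of HFD and then 8 weeks without it (weight loss, WL). Live cells were sorted as adipose tissue macrophages (ATM) without or with the integrin CD11c on their surface, as adipose tissue dendritic cells (ATDC), or as preadipocytes (PA). The 9 groups were CD11c- ATM of ND (2 arrays), HFD (3 arrays) and WL mice (2 arrays), CD11c+ ATM of HFD and WL mice (3 arrays each), ATDC of ND (2 arrays) and HFD mice (3 arrays), and PA of ND and HFD mice (3 arrays each). ND mice gave too few CD11c+ ATM to purify, per the series design. The ND and HFD arrays held pools: of 3 to 4 mice for PA and all HFD groups, whereas the lean macrophages and dendritic cells were each 2 pools made from 4 mice, with no word on whether 4 is per pool. The labels do not say whether WL arrays were pools, or which sort markers other than CD11c were used.

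ATP and other nucleotides that leave cells act as signals on P2X channels, which open to ATP, and on P2Y receptors, which couple to G proteins and differ in whether they prefer ATP, ADP or UDP. Entpd1 (CD39) removes phosphates from extracellular ATP and ADP to give AMP, and Nt5e (CD73) converts AMP to adenosine, which acts on the adenosine receptors. In fat, macrophages, dendritic cells and stromal progenitors lie side by side and share this extracellular pool.

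The sort labels were checked against marker lists. A median over 12 macrophage markers lay between 9.52 and 10.68 log2 units on the 13 ATM arrays, between 7.81 and 9.46 on ATDC arrays and between 4.19 and 8.10 on PA arrays. The dendritic cell list lay between 8.03 and 8.76 on ATDC arrays and no higher than 5.55 elsewhere, and the preadipocyte and fibroblast list between 10.37 and 10.58 on PA arrays. That last list also reached 9.08 on HFD CD11c- ATM replicate 3, against 4.67 and 5.22 on the ND CD11c- ATM arrays. It read 8.36 and 8.83 on the WL CD11c- ATM arrays and from 7.11 to 8.26 on the WL CD11c+ ATM arrays. Itgax, which encodes CD11c, was higher on each CD11c+ ATM array (7.70 to 9.19) than on any CD11c- ATM array (2.76 to 7.10). HFD ATDC replicate 1 stood apart from its group, with a macrophage level of 7.81 against 9.46 and 8.99 and a natural killer and innate lymphoid cell level of 7.45 against 5.08 and 5.15. Only some of the results that use it, or HFD CD11c- ATM replicate 3, are also given without those arrays. Array medians lay between 2.96 and 3.15, and a value near them is read here as low, with no order among such values.

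**Figure D1:**
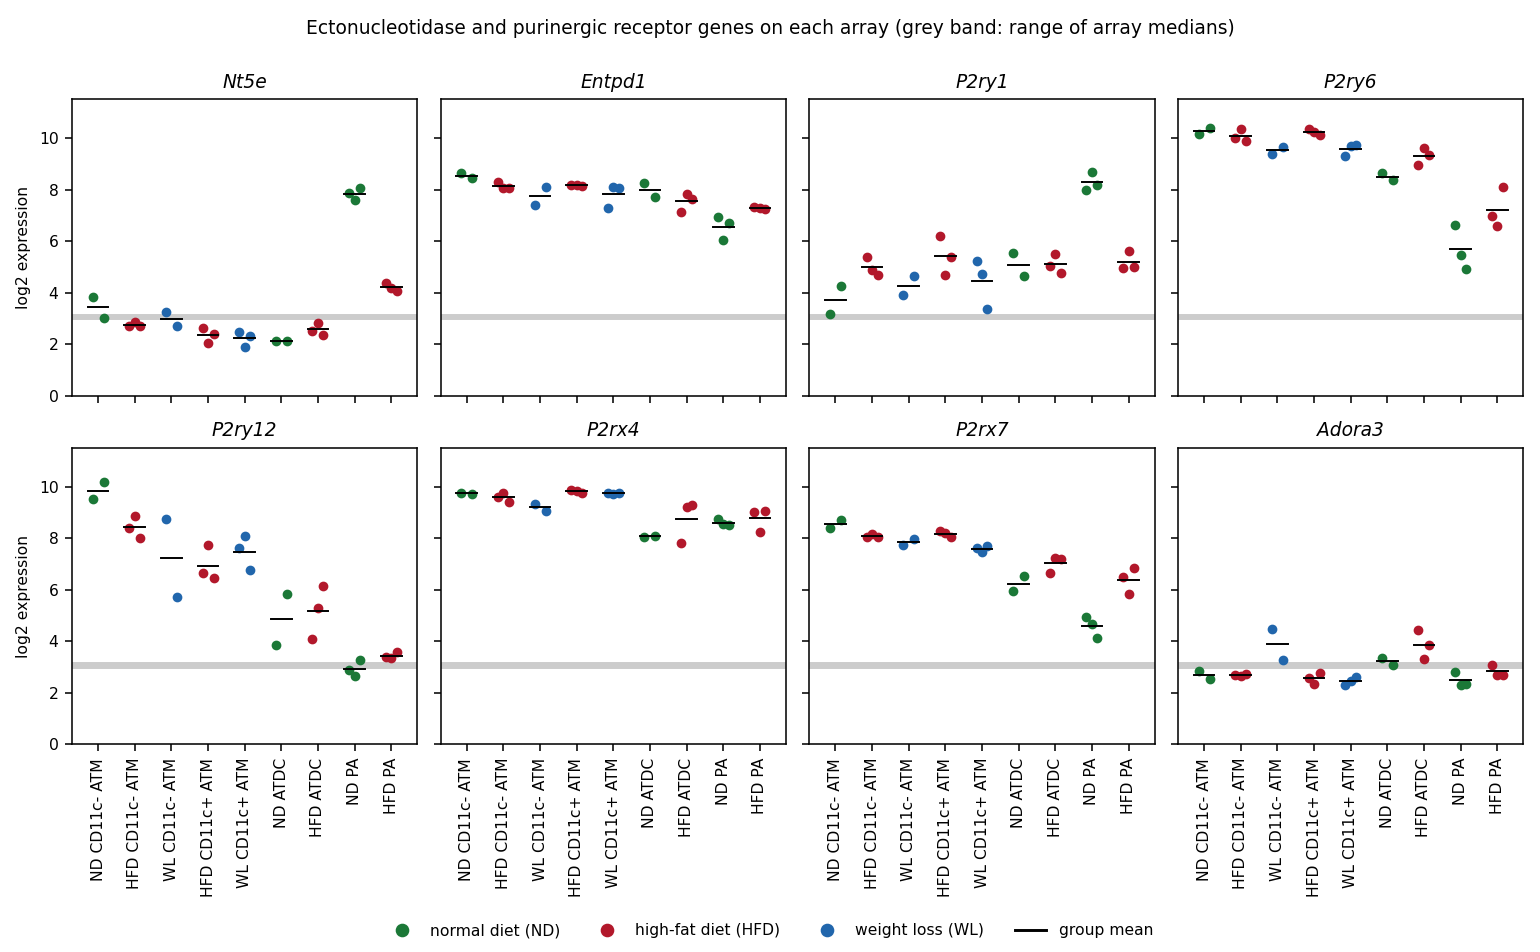
Level of each measured gene on every array, in log2 expression units (y axis), for the 9 groups of sorted cells (x axis), with points coloured by diet, a black line at each group mean and a grey band from the lowest to the highest array median (2.96 to 3.15). Nt5e and P2ry1 sit highest on the ND PA arrays, P2ry6, P2ry12 and P2rx7 are highest on average on ND CD11c- ATM arrays, and Adora3 stays under 4.50 on every array.

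Nt5e, the enzyme that makes adenosine from AMP, was a gene of preadipocytes in these arrays. It read 7.88, 7.59 and 8.04 on the ND PA arrays and 4.39, 4.17 and 4.05 on the HFD PA arrays. The ND CD11c- ATM arrays read 3.82 and 3.03, and the other 16 arrays lay between 1.88 and 3.23. The ND PA arrays were therefore far above all others, the HFD PA arrays came next without overlapping any other group, and every remaining group overlapped its neighbour in the order of means. Only 8 of the 24 arrays read above their own median, 6 of them PA arrays, so Nt5e entered the test largely through preadipocytes. Against ND CD11c- ATM, ND PA was higher by 4.41 ± 0.27 log2 units (standard error; limma adjusted p = 1.8e-09). Between HFD PA and HFD CD11c- ATM the difference was 1.45 ± 0.24 (adjusted p = 0.00014), and at least 1.13 when the macrophage arrays are set to their medians. The diet difference of Nt5e in PA was known when the genes were listed, and these tests use the same PA arrays. ND ATDC read 2.13 and 2.11, under ND CD11c- ATM by 1.31 in the fit (adjusted p = 0.0066). That difference shrinks to at least 0.30 with the ATDC arrays set to their medians, and without ND CD11c- ATM replicate 1 its adjusted p was 0.15. As these are sorted but bulk samples, fewer cells of a type and less RNA per cell cannot be told apart in any of these differences.

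Entpd1, the enzyme that feeds AMP to Nt5e, ran the other way and varied less. The 3 groups of CD11c- ATM read 8.63 and 8.44 (ND), 8.31, 8.04 and 8.07 (HFD), and 7.41 and 8.08 (WL). CD11c+ ATM read 8.19, 8.19 and 8.15 (HFD) and 7.30, 8.09 and 8.04 (WL), and ATDC 8.26 and 7.72 (ND) and 7.13, 7.84 and 7.65 (HFD). PA were lowest on average, at 6.92, 6.04 and 6.71 (ND) and 7.32, 7.30 and 7.25 (HFD). ND CD11c- ATM lay above and ND PA under all other groups, and the groups between them formed a chain in which each overlapped the next. Entpd1 was lower in ND PA than in ND CD11c- ATM by 1.98 ± 0.30 (limma adjusted p = 4e-05). The smaller gap on HFD, -0.85 ± 0.27, passed with all arrays (adjusted p = 0.028) and with none of the 6 single arrays left out (adjusted p from 0.051 to 0.11).

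The start regions of 3 genes are shown for orientation: Nt5e and P2ry1, both highest in ND PA, and P2ry12, the gene with the widest range of group means. Each runs 5′ to 3′ on the gene's strand, from 250 bases before to 50 bases after the RefSeq start, with build GRCm38.p6. Capitals mark matches on either strand to the GC box (GGGCGG), the core of the hypoxia response element (ACGTG), the cAMP response element half-site (TGACG), the TATA box (TATAAA) or the ETS core (GGAAGT), the 5 motifs searched, and overlapping matches are counted separately. The build behind the array's own annotation is not stated, and the sequences were matched by symbol.
Nt5e, chr9:88327359-88327658, plus strand: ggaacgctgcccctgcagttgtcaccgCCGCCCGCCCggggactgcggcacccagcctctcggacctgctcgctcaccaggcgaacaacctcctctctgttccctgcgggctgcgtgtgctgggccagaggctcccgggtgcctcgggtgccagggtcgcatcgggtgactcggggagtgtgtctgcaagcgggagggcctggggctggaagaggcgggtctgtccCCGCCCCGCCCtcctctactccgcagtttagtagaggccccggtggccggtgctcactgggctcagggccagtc
P2ry1, chr3:61002535-61002834, plus strand: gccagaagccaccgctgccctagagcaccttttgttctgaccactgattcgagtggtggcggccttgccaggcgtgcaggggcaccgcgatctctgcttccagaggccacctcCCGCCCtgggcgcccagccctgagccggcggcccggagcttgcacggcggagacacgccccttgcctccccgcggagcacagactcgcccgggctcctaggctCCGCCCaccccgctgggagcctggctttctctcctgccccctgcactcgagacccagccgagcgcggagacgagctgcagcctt
P2ry12, chr3:59262936-59263235, minus strand: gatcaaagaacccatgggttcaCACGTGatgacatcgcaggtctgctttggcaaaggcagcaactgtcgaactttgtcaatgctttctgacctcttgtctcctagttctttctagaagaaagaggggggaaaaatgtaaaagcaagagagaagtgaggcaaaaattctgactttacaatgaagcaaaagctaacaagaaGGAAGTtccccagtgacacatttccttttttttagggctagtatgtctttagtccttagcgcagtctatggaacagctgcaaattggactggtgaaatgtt
The Nt5e and P2ry1 regions were rich in G and C (71.0% and 70.7%) and held 23 and 25 CpG steps, whereas the P2ry12 region was 42.3% G and C with 4 CpG steps. The median over 32851 such regions of 300 bases was 52.7% and 7. Nt5e held 4 matches to the GC box, which overlap in part, and P2ry1 held 2, a motif found in 35.7% of all the regions. P2ry12 held CACGTG, which matches the ACGTG core on both strands (found in 19.6% of regions), and 1 ETS core (23.8%). The half-site (20.8% of regions) and the TATA box (13.6%) had no match in these 3 windows. A match describes letters only, and none of these arrays measured binding there. Of the 10 listed genes, 8 had an entry in the RefSeq promoter table.

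P2ry1, a receptor for ADP, shared the preadipocyte peak of Nt5e. It read 7.97, 8.69 and 8.18 on ND PA arrays and 4.96, 5.63 and 5.0 on HFD PA arrays. All ND PA arrays lay above every other array of the series, by 1.77 units or more, while HFD PA lay among the leukocyte groups. CD11c- ATM read 3.16 and 4.25 (ND), 5.40, 4.88 and 4.68 (HFD) and 3.89 and 4.63 (WL). CD11c+ ATM read 6.20, 4.70 and 5.39 (HFD) and 5.23, 4.74 and 3.36 (WL), and ATDC read 5.52 and 4.63 (ND) and 5.03, 5.48 and 4.78 (HFD). Below ND PA each group overlapped the next in the order of means, with ND CD11c- ATM last. P2ry1 was higher in ND PA than in ND CD11c- ATM by 4.57 ± 0.51 (limma adjusted p = 1e-06). On HFD the same difference was 0.21 ± 0.45, with a 95% interval from -0.74 to 1.16 (adjusted p = 0.83). The diet difference of P2ry1 in PA was known when the genes were listed, and these tests use the same PA arrays.

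P2ry6, a receptor for UDP, was high throughout the myeloid cells. CD11c- ATM read 10.14 and 10.38 (ND), 9.99, 10.33 and 9.87 (HFD) and 9.38 and 9.66 (WL). CD11c+ ATM read 10.36, 10.24 and 10.13 (HFD) and 9.31, 9.70 and 9.73 (WL). ATDC read 8.63 and 8.35 (ND) and 8.96, 9.60 and 9.35 (HFD), and PA 6.63, 5.46 and 4.93 (ND) and 6.96, 6.58 and 8.11 (HFD). The 3 macrophage groups of ND and HFD mice overlapped one another at the top, ND ATDC lay between the other leukocytes and PA, and the PA groups overlapped each other at the bottom. P2ry6 was lower in PA than in CD11c- ATM by 4.58 ± 0.41 on ND (limma adjusted p = 1.2e-07) and by 2.84 on HFD (adjusted p = 1.5e-05). In ND ATDC it lay 1.76 ± 0.45 under ND CD11c- ATM (adjusted p = 0.017), and this did not pass with any of the 4 single arrays left out (adjusted p from 0.057 to 0.12).

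P2ry12, an ADP receptor best known from platelets and microglia, separated the cell types most widely. CD11c- ATM read 9.52 and 10.17 (ND), 8.39, 8.87 and 7.99 (HFD) and 8.76 and 5.71 (WL). CD11c+ ATM read 6.64, 7.74 and 6.44 (HFD) and 7.60, 8.09 and 6.75 (WL). ATDC read 3.87 and 5.83 (ND) and 4.07, 5.28 and 6.15 (HFD), and PA 2.88, 2.65 and 3.26 (ND) and 3.38, 3.34 and 3.58 (HFD). ND CD11c- ATM stood clear of every other group, PA lay near the array medians, and the pair of WL CD11c- ATM arrays lay over 3 units apart. P2ry12 was lower than in ND CD11c- ATM by 4.99 ± 0.79 in ND ATDC (limma adjusted p = 0.00032) and by 6.91 in ND PA (adjusted p = 5.4e-07), where 1 of 3 arrays read above its median. In HFD PA it lay 4.98 ± 0.65 under HFD CD11c- ATM (adjusted p = 1.5e-05).

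Around P2ry12 lie other receptor genes of the family: P2ry13, another ADP receptor, is its direct neighbour in the RefSeq order, and the UDP-sugar receptor gene P2ry14 lies close by. P2ry13 read 6.48 and 8.11 on ND CD11c- ATM arrays, and 4.69, 5.55 and 5.18 on HFD and 6.69 and 4.15 on WL CD11c- ATM arrays. Like P2ry12 it was lower in ND ATDC (by 3.83, limma adjusted p = 0.00053) and in ND PA (by 4.22, adjusted p = 1.3e-05) than in ND CD11c- ATM. P2ry14 differed by 1.16 ± 0.49 (adjusted p = 0.18) and 1.01 ± 0.45 (adjusted p = 0.12) in the same comparisons, toward the opposite side. The WL CD11c- ATM array with the lower P2ry12 value, replicate 2, also had the lower P2ry13 and Gpr34 values of its pair. P2ry6 likewise neighbours P2ry2, and P2rx7 neighbours P2rx4.

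**Figure D2:**
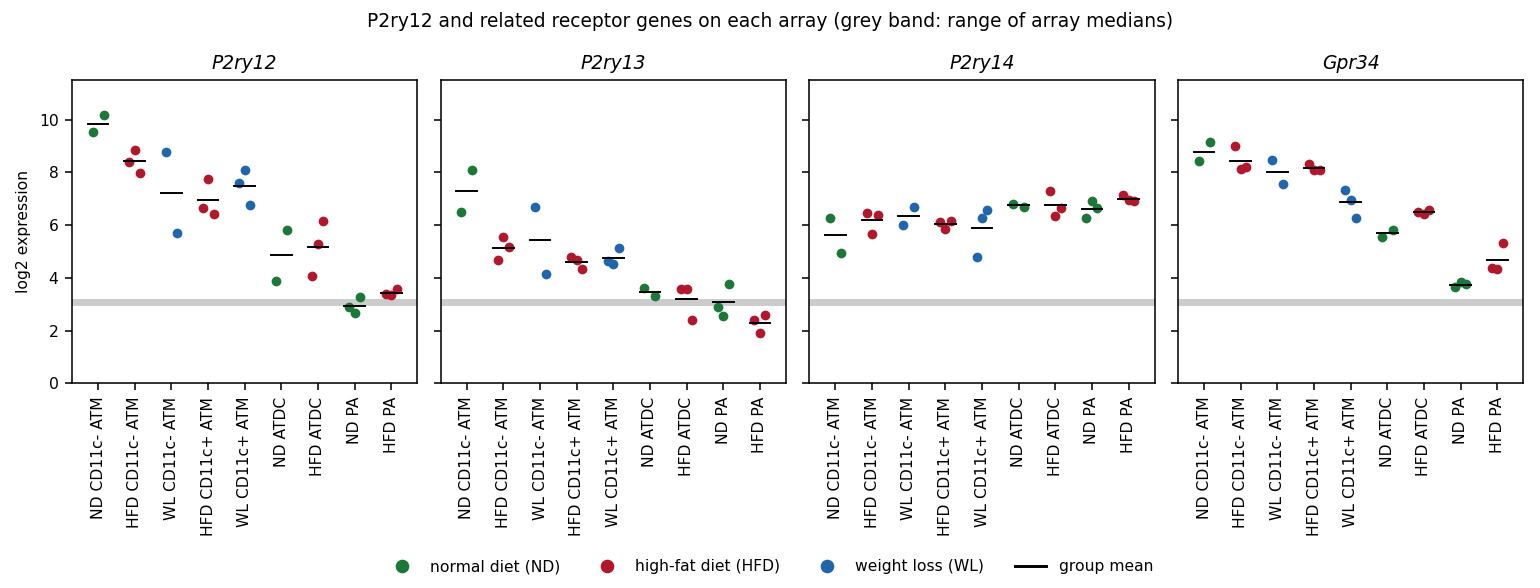
P2ry12 beside the related receptor genes P2ry13, P2ry14 and Gpr34 on every array, in log2 expression units (y axis) by group (x axis), with points coloured by diet, black lines at group means and a grey band over the range of array medians. P2ry12, P2ry13 and Gpr34 have their highest group mean in ND CD11c- ATM, and P2ry14 lies between 4.80 and 7.30 in all groups.

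P2rx4, an ATP-gated channel of the plasma membrane and lysosomes, was high in every group. CD11c- ATM read 9.75 and 9.73 (ND), 9.60, 9.77 and 9.41 (HFD) and 9.34 and 9.05 (WL), and CD11c+ ATM 9.86, 9.84 and 9.77 (HFD) and 9.76, 9.72 and 9.74 (WL). ATDC read 8.05 and 8.10 (ND) and 7.81, 9.21 and 9.27 (HFD), and PA 8.73, 8.54 and 8.52 (ND) and 9.03, 8.25 and 9.07 (HFD). All 11 ATM arrays other than those of WL CD11c- ATM lay above every ATDC and PA array, and HFD ATDC replicate 1 lay over 1 unit under the other arrays of its group. P2rx4 was lower in ND ATDC than in ND CD11c- ATM by 1.66 ± 0.36 (limma adjusted p = 0.0051). It was also lower in ND PA, by 1.14 ± 0.33 (adjusted p = 0.014), and that call ended when either ND CD11c- ATM array was left out (adjusted p up to 0.082). On HFD the gap of PA to CD11c- ATM was -0.81 ± 0.29 (adjusted p = 0.057). It did not pass with any of the 6 single arrays of these groups left out (adjusted p from 0.052 to 0.28). Without HFD CD11c- ATM replicate 3 and HFD ATDC replicate 1 together it was -0.90 (adjusted p = 0.0071). The latter array is not in this comparison and enters only the shared estimate of the spread.

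P2rx7, the channel that needs high ATP and is known for starting release of interleukin 1 beta through the Nlrp3 inflammasome, was likewise strongest in macrophages. CD11c- ATM read 8.39 and 8.71 (ND), 8.03, 8.18 and 8.06 (HFD) and 7.73 and 7.96 (WL), and CD11c+ ATM 8.29, 8.20 and 8.05 (HFD) and 7.61, 7.48 and 7.70 (WL). ATDC read 5.95 and 6.53 (ND) and 6.64, 7.23 and 7.21 (HFD), and PA 4.96, 4.68 and 4.11 (ND) and 6.51, 5.84 and 6.84 (HFD). Every ATM array lay above every ATDC and PA array, and ND PA lay under all other groups. Against ND CD11c- ATM, P2rx7 was lower by 2.31 ± 0.32 in ND ATDC (limma adjusted p = 8.7e-05) and by 3.96 ± 0.29 in ND PA (adjusted p = 1.8e-08). In HFD PA it was lower than in HFD CD11c- ATM by 1.69 ± 0.26 (adjusted p = 7.7e-05).

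Adora3, the adenosine receptor best known from mast cells of rodents, stayed near the array medians. Only 7 of 24 arrays read above their median: both WL CD11c- ATM arrays (4.49 and 3.29), the 3 HFD ATDC arrays (4.44, 3.31 and 3.84), 1 ND ATDC array (3.37, with 3.09 on the other) and 1 HFD PA array (3.09). It entered the test through these. The other arrays lay between 2.30 and 2.86. WL CD11c- ATM and HFD ATDC overlapped each other and lay above every other macrophage and PA array. Adora3 was higher in WL than in HFD CD11c- ATM by 1.20 ± 0.32 (limma adjusted p = 0.048; at least 0.81 with the dim arrays at their medians) and lower in WL CD11c+ than WL CD11c- ATM by 1.42 ± 0.32 (adjusted p = 0.034; at least 0.83). Each of these 2 calls passed with 1 of 5 single arrays left out, the case without WL CD11c- ATM replicate 2. With the others left out the adjusted p reached 0.46 and 0.30, in both cases without WL CD11c- ATM replicate 1, where the differences were 0.60 and -0.82. A fit of the compared groups alone also ended both calls (adjusted p = 0.26 and 0.55). Adora3 was also higher in HFD ATDC than in HFD CD11c+ ATM by 1.30 ± 0.29 (adjusted p = 0.011; at least 0.87).

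Mast cell markers were high on the WL CD11c- ATM arrays. The median over the 8 mast cell markers was 8.40 and 9.19 on WL CD11c- ATM arrays, with 8 of 8 markers above the array median on both. The array with the lower of these levels had the higher Adora3 value (4.49). The list median was 5.77, 2.32 and 4.43 on HFD CD11c- ATM, 6.28, 5.56 and 5.11 on WL CD11c+ ATM, and 2.28 and 2.79 on ND CD11c- ATM, where 6 of 8 markers, among them Cpa3, Fcer1a and Hdc, were above the median on neither array. From HFD to WL in CD11c- ATM 6 of the 8 markers rose (median difference 4.57), and from CD11c- to CD11c+ ATM in WL 4 of 8 fell (median -3.09). On the HFD ATDC arrays the list read 6.17, 2.28 and 2.93, and Fcer1a, Ms4a2 and Hdc were above the median on none of them. Kit (6.49, 6.16 and 7.38) and Cpa3 (7.88, 3.45 and 4.19) were above it on all 3 arrays. Kit also read 5.70 and 6.04 on ND ATDC arrays. HFD ATDC replicate 1, with the highest Adora3 of its group (4.44), also had the highest Mcpt4, Cma1 and Tpsb2 (6.72, 6.68 and 5.86). In CD11c+ ATM the list went from 4.81, 2.34 and 2.77 on HFD to the WL levels given, while Adora3 stayed under the array medians (means of 2.56 and 2.47). The part of mast cells in the Adora3 differences was not tested.

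**Figure D3:**
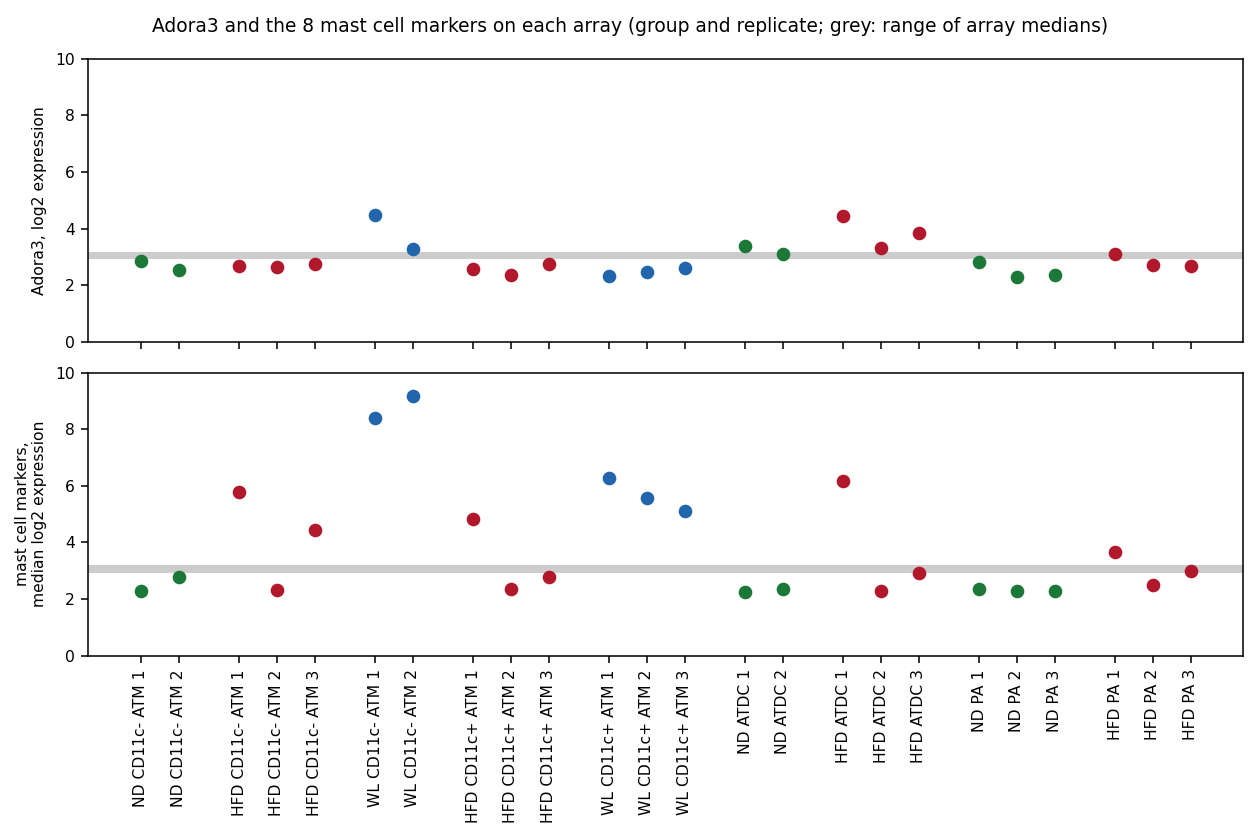
Adora3 (upper panel) and the median of the 8 mast cell markers (lower panel) on each array, in log2 expression units (y axes), by group and replicate (x axis), with green for normal diet, red for high-fat diet, blue for weight loss and a grey band over the range of array medians. Both WL CD11c- ATM arrays are high in the lower panel (8.40 and 9.19) and above the band in the upper (4.49 and 3.29), and the HFD ATDC arrays with raised Adora3 have marker medians of 6.17, 2.28 and 2.93.

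Set against all 15496 genes tested, the cell types differed in many of these genes. In the diet and weight loss comparisons that were tested, few of these genes passed. The preadipocyte diet contrast, described below, was not tested and is not part of that statement. In PA against CD11c- ATM on ND, 7 of 8 genes passed an adjusted p of 0.05, where 23.4% of all genes did, with 2 higher (Nt5e and P2ry1) and 5 lower, and a median of -1.56 against -0.01 over all genes. All 12 macrophage markers fell and all 10 preadipocyte and fibroblast markers rose in that comparison. On HFD 5 of 8 passed (20.7% of all genes), Nt5e higher and P2ry6, P2ry12, P2rx7 and Entpd1 lower, with a median of -0.83 against -0.03. Both counts use the PA arrays in which Nt5e and P2ry1 had been seen before the genes were listed. They are therefore not independent of that choice. In ATDC against CD11c- ATM on ND, 5 of 8 passed and all 5 were lower (8.27% of genes passed in either direction and 4.60% were lower): P2ry12, P2rx7, P2ry6, P2rx4 and Nt5e. That count was 3 without ND CD11c- ATM replicate 1. The macrophage list fell in 6 of 12 markers there (median -1.83), while 7 of 11 dendritic cell markers and 6 of 8 natural killer and innate lymphoid cell markers rose, and their part in the result was not tested. These comparisons share the ND CD11c- ATM arrays, so their values are not independent.

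**Figure D4:**
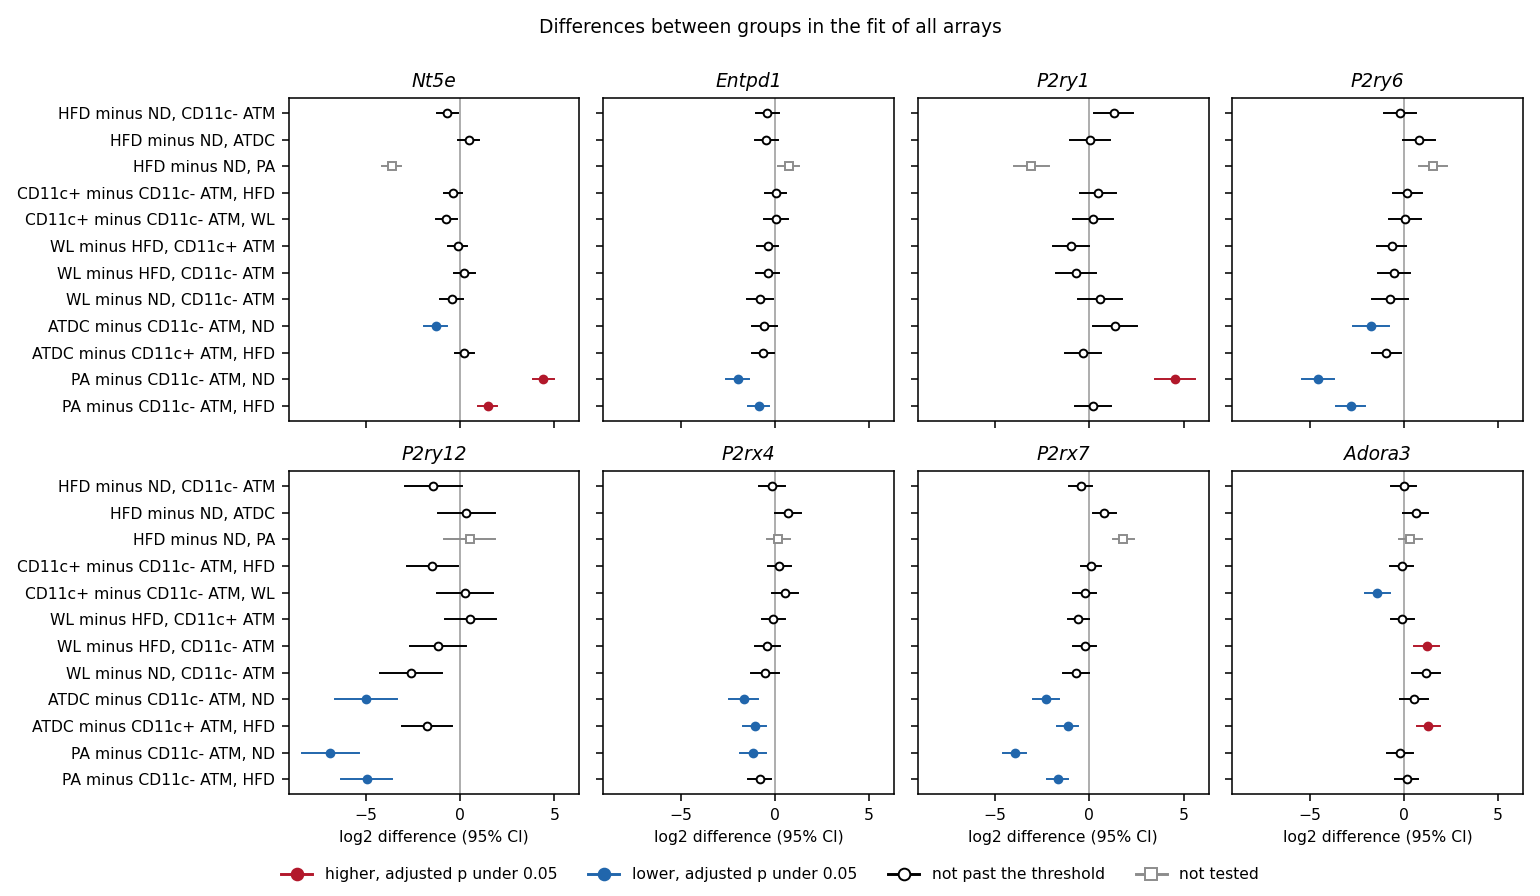
Differences between groups for each gene, in log2 units with 95% intervals (x axis), in the 12 comparisons (y axis), from a limma fit of all 24 arrays. Filled red and blue points passed an adjusted p of 0.05 as higher or lower, open circles did not pass, and grey squares mark the preadipocyte diet contrast, which was not tested. P2ry12 and P2rx7 lie left of 0 in all 4 comparisons of ATDC or PA with ATM, whereas open circles fill nearly all of the diet and weight loss comparisons.

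In ATDC against CD11c+ ATM on HFD, 3 of 8 genes passed (4.16% of all genes): P2rx7 was lower by 1.15 ± 0.26 (limma adjusted p = 0.013), P2rx4 was lower by 1.06 ± 0.29 (adjusted p = 0.046) and Adora3 was higher, as above. HFD ATDC replicate 1, the array with the low macrophage level, had the lowest P2rx4 and P2rx7 and the highest Adora3 of its group. Without it none of the 3 passed, with differences of -0.96 for P2rx7, -0.58 for P2rx4 and 1.02 for Adora3 (adjusted p from 0.094 to 0.28). Without HFD CD11c+ ATM replicate 1 or replicate 2 the count was 1.

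Between CD11c+ and CD11c- ATM of HFD mice, none of the 8 genes passed, and 0.00645% of all genes did. By limma 1 of the 8, P2ry12, had an unadjusted p under 0.05. P2ry12 was lower on each CD11c+ array than on any CD11c- array, with a difference of -1.48 ± 0.65 (adjusted p = 0.73), and Nt5e and P2rx4 also did not overlap (17.7% of all genes did not). Nt5e lay under the array median on all 6 of these arrays, so its values there have no order. In the WL mice the difference in P2ry12 was 0.25 ± 0.72 and the arrays overlapped, and Adora3 alone passed (1.34% of genes).

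High-fat diet moved none of the 8 genes past the threshold in CD11c- ATM (0.613% of all genes passed) or in ATDC (0.258%). By limma 2 of 8 had an unadjusted p under 0.05 in each, against 8.60% and 8.62% of all genes. In CD11c- ATM 5 of 8 genes did not overlap between the diets (27.1% of genes did not). P2ry1 was higher on HFD, by 1.28 ± 0.51 (adjusted p = 0.41), and Nt5e, Entpd1, P2ry12 and P2rx7 lower, by -0.68 ± 0.27, -0.40 ± 0.30, -1.43 ± 0.72 and -0.46 ± 0.29 (adjusted p from 0.41 to 0.85). The Nt5e difference is at least 0.35 in size with the HFD arrays set to their medians. It rests on ND replicate 1 (3.82). Replicate 2 of ND (3.03) and all HFD arrays lay under their medians, where no order is read. The preadipocyte and fibroblast list was 7.16, 7.15 and 9.08 on those HFD arrays against 5.22 and 4.67 on ND. Of its 10 markers 9 were higher on HFD without overlap (median difference 1.97), and 2 passed the threshold. The part of this list in these values was not tested. HFD CD11c- ATM replicate 3, the array with the level of 9.08, had the lowest P2ry1 of its group.

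In ATDC 3 of 8 genes were higher on HFD without overlap (22.1% of genes did not overlap in either direction): P2rx7 by 0.79 ± 0.29 (limma adjusted p = 0.38), P2ry6 by 0.81 ± 0.41 (adjusted p = 0.62) and Nt5e by 0.45 ± 0.27 (adjusted p = 0.72), the last at values under the array medians. P2rx4 stood 0.69 ± 0.33 higher (adjusted p = 0.58), a difference that was 1.16 with HFD ATDC replicate 1 left out (adjusted p = 0.038). It did not pass without replicate 2 or 3 of that group, and ran from 0.43 to 1.16 over single arrays left out. Replicate 1 had the lowest macrophage level of its group (7.81, with up to 9.46 on the others, against 8.69 and 8.80 on ND). Without overlap, 4 of 12 macrophage markers were higher on HFD and 1 lower. T cell markers were lower in 4 of 9 and B cell markers in 4 of 7. The part of these lists was not tested. The difference between the diet effects in ATDC and in CD11c- ATM was tested as well, and none of the 8 genes passed (0.0581% of all genes). The 2 with an unadjusted p under 0.05 by limma were P2rx7 at 1.25 ± 0.41 and Nt5e at 1.13 ± 0.38 (both adjusted p = 0.43), the latter mostly at values under the array medians. P2ry12 at 1.74 ± 1.02 (adjusted p = 0.78) and P2ry1 at -1.26 ± 0.72 (adjusted p = 0.77) were larger in size with a wider error.

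Weight loss was set against both diets. From HFD to WL in CD11c+ ATM none of 8 genes passed (1.33% of genes), and 2 had an unadjusted p under 0.05 by limma (20.1% of genes): P2rx7 at -0.59 ± 0.26 (adjusted p = 0.22) and P2ry1 at -0.98 ± 0.45 (adjusted p = 0.23). Entpd1, P2ry6, P2rx4 and P2rx7 were lower on all WL than on all HFD arrays, where 17.3% of genes were. The differences were -0.37 ± 0.27, -0.66 ± 0.37, -0.09 ± 0.29 and -0.59 ± 0.26, with a median of -0.10 over all genes. Without overlap, 6 of 12 macrophage markers were lower there (median difference -0.48). Higher without overlap were 6 of 10 preadipocyte and fibroblast markers (1.49) and 5 of 8 mast cell markers (1.83). Of the preadipocyte and fibroblast markers 2 passed the threshold. The part of these lists was not tested. From HFD to WL in CD11c- ATM Adora3 alone passed (2.96% of genes). The difference of these effects between CD11c+ and CD11c- ATM was -1.29 ± 0.43 for Adora3 (adjusted p = 0.49), the 1 gene of 8 with an unadjusted p under 0.05, and none passed (0.161% of genes).

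Between WL and ND in CD11c- ATM none of 8 passed either (6.18% of genes), and 4 had an unadjusted p under 0.05 by limma (19.6% of genes). P2ry12 lay 2.61 ± 0.79 lower in WL (adjusted p = 0.056). The value rests on how the WL arrays are read: it was -4.14 without WL CD11c- ATM replicate 1 (adjusted p = 0.0058) and -1.08 without replicate 2 (adjusted p = 0.52). Adora3 was 1.18 ± 0.35 higher (adjusted p = 0.052; at least 0.77 with the ND arrays at their medians). That difference was 1.78 without WL CD11c- ATM replicate 2 (adjusted p = 0.0086) and 0.58 without replicate 1 (adjusted p = 0.46). Entpd1 and P2rx7 were lower by -0.79 ± 0.33 (adjusted p = 0.18) and -0.70 ± 0.32 (adjusted p = 0.23), and 6 of 8 genes did not overlap, where 48% of genes did not. In this comparison 8 of 8 mast cell and 9 of 10 preadipocyte and fibroblast markers passed the threshold as higher, and 1 of 12 macrophage markers as lower. Without overlap, 8 of 12 macrophage markers were lower (median difference -0.64). The part of these lists was not tested.

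The contrast that was known when the genes were listed, HFD against ND in PA, is described last and with no test. Nt5e was lower on HFD by 3.64 ± 0.24 log2 units (12.4-fold) and P2ry1 by 3.08 ± 0.45 (8.44-fold), and no ND PA array overlapped an HFD PA array in either. P2rx7 was higher by 1.81 ± 0.26 (3.52-fold) and Entpd1 by 0.73 ± 0.27, again without overlap, and P2ry6 was higher by 1.55 ± 0.37 with overlap. P2ry12 was higher by 0.50 ± 0.65 near the array medians, also without overlap, and P2rx4 and Adora3 overlapped, at 0.19 ± 0.29 and 0.34 ± 0.29. In all, 5 of 8 genes did not overlap (19.8% of all genes), 3 higher and 2 lower, where 9.03% and 10.8% of all genes were. With single arrays left out the differences ran from -3.76 to -3.54 for Nt5e, from -3.29 to -2.87 for P2ry1 and from 1.58 to 2.09 for P2rx7.

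Marker lists also differed between these arrays. The preadipocyte and fibroblast list read 10.49, 10.38 and 10.37 on ND PA and 10.52, 10.58 and 10.39 on HFD PA arrays, with 4 of 10 markers higher and 3 lower without overlap and a median difference of 0.10. The macrophage list read 5.56, 4.83 and 4.19 on ND and 6.67, 5.94 and 8.10 on HFD PA arrays, with 5 of 12 markers higher without overlap and a median difference of 1.87. The endothelial list was higher by a median of 1.11 (5 of 10 markers higher and 1 lower without overlap), the pericyte and smooth muscle list by 0.87 (5 of 8 higher and 1 lower) and the proliferation list by 1.44 (6 of 9 higher). The part of these cells in the lower Nt5e and P2ry1 or the higher P2ry6, P2rx7 and Entpd1 was not tested. Other pathway genes also did not overlap. Enpp4 was lower on HFD PA (5.95 against 7.20), as was Gja1 (7.91 against 8.50). Panx1 (6.78 against 5.57) and Bst1 (4.06 against 2.56) were higher. Without overlap, 2 of 8 ectoenzymes were lower and 0 higher, and 1 of 7 ATP release genes was higher and 1 lower. Higher were also 1 of 7 P2Y genes and the 1 NAD ectoenzyme, and 1 of 12 adenosine uptake and metabolism genes was lower. The 2 P2X genes overlapped. Over all genes 9.03% were higher and 10.8% lower without overlap.

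**Figure D5:**
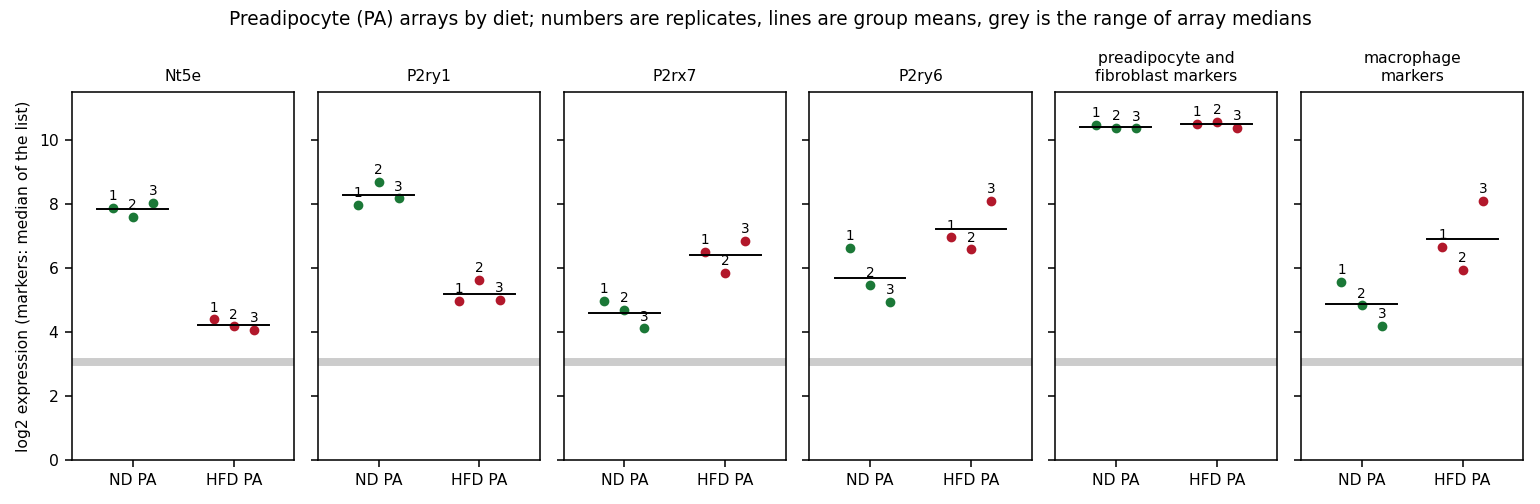
PA arrays of ND (green) and HFD (red) mice for 4 genes and 2 marker lists, in log2 expression units (y axis, for lists the median over their markers), with the replicate number beside each point, a black line at each group mean and a grey band over the range of array medians. Nt5e and P2ry1 lie lower on all HFD arrays, the preadipocyte and fibroblast list lies between 10.37 and 10.58 over both diets, and P2rx7, P2ry6 and the macrophage list are higher on average on HFD arrays.

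The rest of the pathway was read from lists of 50 further genes: other nucleotide-hydrolysing ectoenzymes, other P2Y and P2X receptor genes, adenosine uptake and metabolism, ATP release and NAD ectoenzymes. Of these 43 had a row and 37 were tested. In PA against CD11c- ATM 7 were higher and 6 lower on ND, and 8 higher and 5 lower on HFD. That is 35.1% of the 37 in both, where 23.4% and 20.7% of all genes passed. The leading genes on ND were Gja1, the connexin 43 gene (5.03 ± 0.69 higher, limma adjusted p = 1.2e-05), and the ectoenzyme gene Enpp3 (4.33 ± 0.52 higher, adjusted p = 2.4e-06). Gpr34 (5.05 ± 0.36 lower, adjusted p = 1.3e-08) and P2ry13 led the lower side. On HFD Gpr34, Enpp3 and P2ry13 led again, at -3.76 ± 0.32, 3.21 ± 0.46 and -2.85 ± 0.52 (at least 2.10 lower for P2ry13, with the PA arrays set to their medians), with the NAD ectoenzyme gene Bst1 at -2.78 ± 0.45 (adjusted p up to 0.00039). Of the same list of nucleotide-hydrolysing ectoenzymes Enpp4 and Alpl, the alkaline phosphatase gene, were higher in PA as well, by 3.31 ± 0.56 and 3.78 ± 0.54 on ND (adjusted p = 0.00014 and 2.1e-05) and by 1.66 ± 0.50 and 1.91 ± 0.49 on HFD (adjusted p = 0.021 and 0.0068).

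In ATDC against CD11c- ATM on ND 2 of the 37 were higher and 5 lower (18.9% of the 37, against 8.27% of all genes), and against CD11c+ ATM on HFD 2 were higher and 1 lower (8.11%, against 4.16%). P2ry10 was 4.95 ± 0.38 and 3.57 ± 0.31 higher in these (limma adjusted p = 1.5e-07 and 1.2e-06), from ND CD11c- ATM values of 1.93 and 1.64, under the array medians, so that the ND difference is read as at least 3.62. Gpr34 and P2ry10 carry the family's name or place in it but are known as receptors for lysophosphatidylserine. Dpp4, listed here under adenosine uptake and metabolism and also on the dendritic cell list, was 4.13 ± 0.66 and 3.97 ± 0.54 higher (adjusted p = 0.00036 and 0.00016). The diet and weight loss comparisons called at most 2 of the 37: Gpr34 was lower in WL than HFD CD11c+ ATM (-1.31 ± 0.32, adjusted p = 0.049), and P2ry10 was higher (1.76 ± 0.38, adjusted p = 0.0089; at least 0.43 with the ND arrays at their medians) and the cytosolic nucleotidase gene Nt5c2 lower (-1.09 ± 0.32, adjusted p = 0.045) in WL than ND CD11c- ATM.

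Of the 8 listed partners of P2rx7 in the inflammasome, Il1b moved where the channel gene did not pass. In CD11c- ATM Il1b read 3.43 and 2.28 (ND), 4.87, 5.07 and 4.56 (HFD), and 7.96 and 8.51 (WL), with no overlap between the diets. It was higher on HFD than ND by 1.98 ± 0.42 (limma adjusted p = 0.033) and in WL than HFD by 3.40 ± 0.42 (adjusted p = 1e-04). In CD11c+ ATM it was 1.89 ± 0.37 higher in WL than HFD (adjusted p = 0.02). The P2rx7 differences in the same comparisons were -0.46, -0.24 and -0.59, none past the threshold. Il18 was lower in WL than HFD CD11c- ATM by 1.40 in the mean (5.44 against 6.84, adjusted p = 0.02), and the other 6 partners did not pass in these 3 comparisons. Other lists moved beside Il1b from HFD to WL. Without overlap, 10 of 12 dissociation stress genes were higher and 1 lower in CD11c- ATM (median difference 0.84) and 4 of 12 were higher in CD11c+ ATM (0.59). In CD11c- ATM 6 of 8 mast cell, 3 of 8 natural killer and innate lymphoid cell and 3 of 10 endothelial markers rose, and in CD11c+ ATM 2 of 6 neutrophil markers did. Their part in the Il1b differences was not tested. In PA against CD11c- ATM on ND 3 of the 8 were lower and none higher (10.8% of all genes were lower), among them Nlrp3 (-2.61 ± 0.39, adjusted p = 3.6e-05; at least 2.46 lower with the PA arrays at their medians) and its adaptor gene Pycard (-1.82 ± 0.29, adjusted p = 6.8e-05).

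Over the 9 group means, P2ry6, P2ry12, P2rx7 and Entpd1 ran together (Pearson r from 0.857 to 0.958 for their pairs), P2ry1 ran with Nt5e (0.815), and P2ry1 ran against P2rx7 (-0.837). These are descriptions over 9 points that share arrays and pools. The ND PA mean is the highest for Nt5e and P2ry1 and the lowest for Entpd1, P2ry6, P2ry12 and P2rx7. How much it weighs in these values was not tested. The genes whose group means were most like each gene were Pappa, Pde11a and Alpk3 for Nt5e (r from 0.979 to 0.991), Clec10a, Rnf150 and Pepd for Entpd1 (0.973 to 0.975) and Tmc4, Uba3 and Zfp108 for P2ry1 (0.953 to 0.967). For P2ry6 they were Ehd4, Lair1 and C1qb (0.992 to 0.995), for P2ry12 Secisbp2l, Slc9a9 and Trpv4 (0.979 to 0.986), for P2rx4 Aplp2, Kidins220 and Mpp1 (0.98 to 0.983) and for P2rx7 C3ar1, Hacd4 and C5ar1 (0.984 to 0.986). For Adora3, whose means lie near the array medians, they were Crtc2, Ankrd36 and Atp1b4 (0.925 to 0.974).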

How the data were processed

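RNA of 24 samples of sorted cells was amplified as whole-transcript cDNA, labelled with biotin and hybridised to 1 array each, per the labels' protocols. The deposited values are normalized log2 expression, made by the authors with RMA, oligo and limma per the submitters' processing notes, which give no versions; RMA removes a shift shared by all genes. The table has 41345 rows: 23521 carry 1 gene symbol, 1814 several and 16010 none in the platform annotation, and the 1-symbol rows name 22180 genes. The genes described, the pathway lists and the marker lists were chosen with earlier results of these data known.

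Genes above the array median on at least 2 arrays (15496) were fitted with limma 3.58.1 (R 4.3.3): 1 mean per group over all 24 arrays, 15 residual degrees of freedom, eBayes, two-sided, Benjamini-Hochberg over all tested genes within a comparison, threshold 0.05. The fit covers 11 tested comparisons, 2 tests of differences between effects and 1 described contrast. The p-values measure the spread between these samples, which are pools where stated, not between mice, and the number of arrays limits the precision. Without scanner intensities, background was not judged probe by probe; the array median serves as a floor ("at least"), a choice made after seeing the data. Levels are not compared between genes, since probes differ.

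All members were named. Of the pathway lists, in each tested comparison up to 4 genes past the threshold, without overlap and with the largest differences, were named. Enpp4, Alpl, Panx1, P2ry14, Nlrp3 and Pycard, and the markers singled out, were named outside that rule after their values were seen. The same holds for Gja1 and Bst1 in the preadipocyte diet contrast. For likeness the 3 genes with the highest r were named, passing over unnamed gene models, antigen receptor segments, and receptors of the olfactory and vomeronasal families. The fit was tested on simulated data. The alternatives were filters, normalization, array weights, variance moderation, the row that stands for a gene, replicate blocks and leaving out arrays.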

Additional observations from a re-analysis of the deposited data

Results flagged for a closer look

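High-fat diet and normal diet were separated without overlap in opposite directions in different cells for 5 genes. No share over all genes was computed for this pattern, so the count is not read as a result. In single contrasts 27.1% of all genes did not overlap between the diets in CD11c- ATM, 22.1% in ATDC and 19.8% in PA. The difference between the cells was not tested in any of the 5, since the preadipocyte contrast is a description. In CD11c- macrophages against preadipocytes the diet differences (HFD minus ND, log2) were -0.40 and 0.73 for Entpd1, 1.28 and -3.08 for P2ry1, -1.43 and 0.50 for P2ry12, and -0.46 and 1.81 for P2rx7. The P2ry12 values in preadipocytes lie near the array medians, where no order is read. For Nt5e the diet differences were 0.45 in dendritic cells, at values under the array medians where no order is read, and -3.64 in preadipocytes. In CD11c- macrophages Nt5e was lower on HFD as well, at -0.68 and mostly at values under the array medians. None of the macrophage or dendritic cell differences passed the threshold by limma.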

How the results depend on the processing

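No alternative turned the direction of a difference among those recomputed: the genes that passed in a comparison with all arrays or under an alternative, and all 8 in the preadipocyte diet contrast. The differences of the other genes were not recomputed. In PA against CD11c- ATM the count of genes past the threshold was 6 to 7 on ND (7 with all arrays) and 4 on HFD (5 with all arrays) with single arrays left out. For WL against HFD in CD11c- ATM the count of 1, Adora3, became 0 with no filter on low values (adjusted p = 0.055), the stricter filter (Adora3 not in that fit), a fit of the compared groups alone (0.26), arrays shifted to a common median (0.06), quantile normalization again (0.066), array weights (0.098) and a trended, robust variance (0.05), and ran from 0 to 1 with single arrays left out. For CD11c+ against CD11c- ATM in WL the count of 1 became 0 with the stricter filter, the compared groups alone and array weights (0.18), and ran from 0 to 1. For WL against ND in CD11c- ATM the count of 0 became 1 with the stricter filter (P2ry12, adjusted p = 0.048) and with quantile normalization again (Adora3, 0.048), and ran from 0 to 1. For ATDC against CD11c- ATM on ND the count of 5 ran from 3 to 4 with arrays left out. For ATDC against CD11c+ ATM on HFD the count of 3 became 1 with the compared groups alone and 0 without HFD CD11c- ATM replicate 3 and HFD ATDC replicate 1, a choice made after seeing the data, and ran from 0 to 3. For HFD against ND in ATDC the count of 0 became 1 (P2rx4) without those 2 arrays, and ran from 0 to 1. The cause was not tested where the alternative's own construction (fewer genes, fewer arrays) does not show it.

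The labels number replicates alike across groups and do not say whether arrays of the same number share mice. Deviations from group means correlated at a median of 0.03 within diet for 26 pairs of the same number (-0.11 to 0.25). For 50 pairs of different numbers the median was -0.01 (-0.19 to 0.19). These correlations cannot exclude shared mice, since in groups of 2 arrays the deviations mirror each other. No pairing was assumed in the main fit. With the number as a replicate block, the count for WL against ND in CD11c- ATM became 1 (Adora3, adjusted p = 0.024), and P2rx4 did not pass in ATDC against CD11c+ ATM on HFD (0.061). With the replicate block within diet P2rx4 did not pass there (0.11) or in PA against CD11c- ATM on ND (0.076).

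Genes called among all 15496 also moved. With the compared groups alone 3 were called for HFD against ND in CD11c- ATM, where all arrays gave 95, and array weights gave 206. Groups of 2 to 3 arrays and values near the array medians, as for Adora3 and Nt5e in leukocytes, limit what can be seen.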
